A study of Mus musculus with 2 samples.

Results

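The let-7 family was examined in forebrain of mouse embryos at day 15.5 (E15.5). Its members were the 10 let-7 genes with a count row, Mirlet7a-1, Mirlet7a-2, Mirlet7b, Mirlet7c-1, Mirlet7c-2, Mirlet7d, Mirlet7f-2, Mirlet7g, Mirlet7i and Mir98. They were taken by name from 1973 gene rows, and the rule uses no measured value, although it was written with earlier results of these data known. The study held 1 group: small RNA below 30 nt from healthy forebrain of the B6NCrl strain, with male and female embryos pooled and no mutation or treatment named in the labels. Biological replicate 2 pooled tissue of 62 embryos and biological replicate 1 tissue of 78 embryos. The labels give both pools the same donor record, and biological and technical differences between these 2 pools cannot be told apart. There was no second condition, and the comparisons are between members, with other genes, and between the 2 libraries.

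MicroRNAs of the let-7 family were first found in the timing of development in the worm Caenorhabditis elegans. The mature strand is cut from a hairpin by Drosha and then Dicer, and it guides Argonaute proteins to messenger RNAs that pair with its seed, the bases near its 5′ end. In the embryonic brain let-7 levels climb as neural progenitors give way to neurons, and the RNA-binding proteins LIN28A and LIN28B hold the precursors back in early cells. Known let-7 targets in mammals include Lin28 itself, Hmga2 and Igf2bp1.

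All mature let-7 strands from the 5′ arm were 22 nt long and had 1 seed, GAGGUAG at bases 2 to 8. The sequences are shown because they set which genes the counts can tell apart. They are from RefSeq (GRCm38.p6), which holds a hairpin for each of the 10 members, and the seed is in capitals.
let-7g: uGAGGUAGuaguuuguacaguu
let-7i: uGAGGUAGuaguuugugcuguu
let-7d: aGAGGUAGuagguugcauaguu
let-7b: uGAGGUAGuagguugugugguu
miR-98: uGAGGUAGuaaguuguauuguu
let-7f: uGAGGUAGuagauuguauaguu
let-7c: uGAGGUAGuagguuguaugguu
let-7a: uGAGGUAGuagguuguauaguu
let-7e: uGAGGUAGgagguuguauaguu
Counted from 1 at the 5′ end of let-7a, let-7c differed from let-7a by A19G, let-7f by G12A and let-7e by U9G. The strand of let-7b carried A17G and A19G, that of let-7d U1A and U16C, and that of miR-98 G11A and A19U. The strand of let-7g carried G12U and U18C, and that of let-7i G12U, A17G, U18C and A19U. The let-7g, let-7i, let-7d and miR-98 strands stood at least 2 substitutions from any other of the 9, and let-7a, let-7b, let-7c, let-7e and let-7f stood 1 from their nearest.

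The same strand came from more than 1 gene for let-7a (Mirlet7a-1 and Mirlet7a-2), let-7c (Mirlet7c-1 and Mirlet7c-2) and let-7f (Mirlet7f-2 and Mirlet7f-1, which has no row here). So 5 members had a mature sequence of their own and 5 shared it with another gene. A read that ends with the mature strand has the same letters for each copy. The copies are shown with 4 bases before and 6 after the strand, those flanks in capitals, since the copies first differ there.
Mirlet7a-1: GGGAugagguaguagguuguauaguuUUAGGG
Mirlet7a-2: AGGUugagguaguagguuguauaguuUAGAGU
Mirlet7c-1: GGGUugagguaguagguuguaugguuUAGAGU
Mirlet7c-2: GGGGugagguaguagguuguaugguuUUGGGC
Mirlet7f-2: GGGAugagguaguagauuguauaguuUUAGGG
Mirlet7f-1: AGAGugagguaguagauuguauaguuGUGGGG
Among the 2202 annotated miRNA hairpins, a read starting at the 5′ end of the let-7a or let-7c strand matched a single hairpin once it ran 2 bases past its 3′ end, and a let-7f read once it ran 1 base past. On the 3′ arm, let-7a-1-3p and let-7c-2-3p were the same sequence, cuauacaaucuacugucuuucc, and the 3′ arms of Mirlet7a-2, Mirlet7c-1 and Mirlet7f-2 were found in no other hairpin. The rows give 1 count per hairpin, so the arm and the length of the reads behind it are unknown.

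Sequencing gave 13074292 reads in replicate 2 and 11743597 reads in replicate 1, and miRNA genes had 4753555 sense counts in replicate 2 and 4464927 in replicate 1. Reads placed at more than 1 locus stood in a row of their own, with 5543873 reads (42.4%) in replicate 2 and 5240531 reads (44.6%) in replicate 1. That row held 9.85 times the reads of all 10 members together in replicate 2 and 8.71 times in replicate 1. What it holds is unknown, so levels of the 5 members with a shared strand are uncertain. Levels are CPM, counts scaled so that the gene rows of a library sum to 1000000. They are compared between members per gene, since the mature strands have 1 length. Of the brain miRNA markers listed (the Mir9, Mir92b, Mir124a, Mir137 and Mir153 genes), 8 of 9 had a row and counts. They summed to 17703 CPM in replicate 2 and 17283 CPM in replicate 1, although Mir124a-3 was at 0 in replicate 1. Most of the sum came from Mir137, Mir92b and Mir153, at 9092, 5547 and 2112 CPM on average. Mir9-2 averaged 3.26 CPM, and Mir9-1 had no row. The neuronal Mir124a genes, which share a mature strand, did not pass 3.58 CPM in either library.

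The family held a large part of the counts in gene rows, and 2 genes had most of the family's counts. The 10 members summed to 118344 CPM in replicate 2 (11.8% of gene counts, 95% Clopper-Pearson interval 11.8 to 11.9) and to 134771 CPM in replicate 1 (13.5%, 13.4 to 13.5), a mean of 12.7 ± 1.16% (SD, n = 2). All intervals and tests here include counting error alone, and PCR copies that no molecular identifier marks can make that error too small. Mirlet7g and Mirlet7i together made up 76.5% of the family counts in replicate 2 and 77.2% in replicate 1. The 5 members with a strand of their own held 96.1% of the family counts in replicate 2 and 96.0% in replicate 1. The 5 with a shared strand held 3.91% in replicate 2 and 3.96% in replicate 1. Reads placed at more than 1 locus are outside these shares. The shares describe the gene rows and cannot tell how much of all let-7 RNA each strand made up. In these bulk libraries, fewer cells of a type and less RNA per cell cannot be told apart.

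Mirlet7g, the most abundant member and the second of all genes, had 258228 counts (54323 CPM) in replicate 2 and 292833 counts (65585 CPM) in replicate 1, a mean of 59954 ± 7963 CPM. It lies in an intron of Wdr82, a gene for a subunit of histone H3K4 methyltransferase complexes (mm10 chr9:106178840-106178927, + strand, ENSMUSG00000065440). Mirlet7i had 171995 counts (36182 CPM) in replicate 2 and 171839 counts (38486 CPM) in replicate 1, a mean of 37334 ± 1629 CPM and rank 4. It overlaps an exon of the transcribed pseudogene D630033A02Rik (chr10:122985640-122985724, − strand, ENSMUSG00000065406). These are the members that lie alone, with no other miRNA row on their strand within 10 kb. Mirlet7g stood above Mirlet7i in both libraries, by 1.50 times in replicate 2 and 1.70 times in replicate 1. Mirlet7i was 4.22 times the next member, Mirlet7d, in replicate 2 and 3.82 times in replicate 1.

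A middle tier held the other 3 members with a strand of their own. Mirlet7d, in an exon of the long noncoding RNA 6720427I07Rik (chr13:48536012-48536114, − strand, ENSMUSG00000065453), had 40800 counts (8583 CPM) in replicate 2 and 45034 counts (10086 CPM) in replicate 1. Mirlet7b, in an exon of the noncoding gene Lncppara (chr15:85707319-85707403, + strand, ENSMUSG00000065564), had 42032 counts (8842 CPM) in replicate 2 and 39453 counts (8836 CPM) in replicate 1. Their means of 9335 ± 1063 and 8839 ± 4.26 CPM differed by less than the SD of Mirlet7d, and the order of the pair turned between the libraries: Mirlet7d was 0.971 times Mirlet7b in replicate 2 and 1.14 times in replicate 1. Mir98, which by its name stands outside the family although it carries the let-7 seed, lies in an intron of Huwe1, a gene for a ubiquitin ligase (chrX:151913214-151913321, + strand, ENSMUSG00000065536). It had 27490 counts (5783 CPM) in replicate 2 and 28778 counts (6445 CPM) in replicate 1, a mean of 6114 ± 468 CPM, below Mirlet7b in both.

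The 5 members with a shared strand came last, with a median of 497 CPM against 9335 CPM for those with a strand of their own. Mirlet7f-2, in the same Huwe1 intron region (chrX:151912346-151912428, + strand, ENSMUSG00000065602), had 14825 counts (3119 CPM) in replicate 2 and 15650 counts (3505 CPM) in replicate 1, a mean of 3312 ± 273 CPM. Mirlet7c-2, in an exon of Lncppara (chr15:85706603-85706697, + strand, ENSMUSG00000065608), had 2939 counts (618 CPM) in replicate 2 and 3316 counts (743 CPM) in replicate 1, a mean of 680 ± 88.0 CPM. Mirlet7c-1, in an intron of the noncoding gene Mir99ahg and opposite an intron of Gm11146 (chr16:77599657-77599750, + strand, ENSMUSG00000065557), had 2162 counts (455 CPM) in replicate 2 and 2411 counts (540 CPM) in replicate 1, a mean of 497 ± 60.2 CPM. Between them the 2 genes for let-7c differed by more than their SDs, and Mirlet7c-2 was 1.36 times Mirlet7c-1 in replicate 2 and 1.38 times in replicate 1. Mirlet7a-1, in an exon of 6720427I07Rik (chr13:48538179-48538272, − strand, ENSMUSG00000065421), had 1137 counts (239 CPM) in replicate 2 and 1321 counts (296 CPM) in replicate 1. Mirlet7a-2, in an intron of the noncoding genes 3110039I08Rik and Gm49317 (chr9:41536716-41536811, + strand, ENSMUSG00000092770), had 948 counts (199 CPM) in replicate 2 and 1106 counts (248 CPM) in replicate 1. The 2 genes for let-7a kept their order, 1.20 times apart in replicate 2 and 1.19 times in replicate 1, but their ranges overlapped, and their means differed by 44.0 CPM beside SDs of 40.1 and 34.1 CPM.

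From Mirlet7g to Mirlet7a-2 the levels spanned 272-fold in replicate 2 and 265-fold in replicate 1. Mirlet7a-2 has a shared strand and an uncertain level, so these folds are uncertain too. Within the 5 members with a strand of their own the span was 9.39-fold in replicate 2 and 10.2-fold in replicate 1. Within the 5 with a shared strand it was 15.6-fold in replicate 2 and 14.2-fold in replicate 1. Every neighbouring pair in the order of means other than Mirlet7d with Mirlet7b and Mirlet7a-1 with Mirlet7a-2 kept its order and did not overlap. Divided by hairpin length, the order was the same except that Mirlet7b stood above Mirlet7d.

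**Figure D1:**
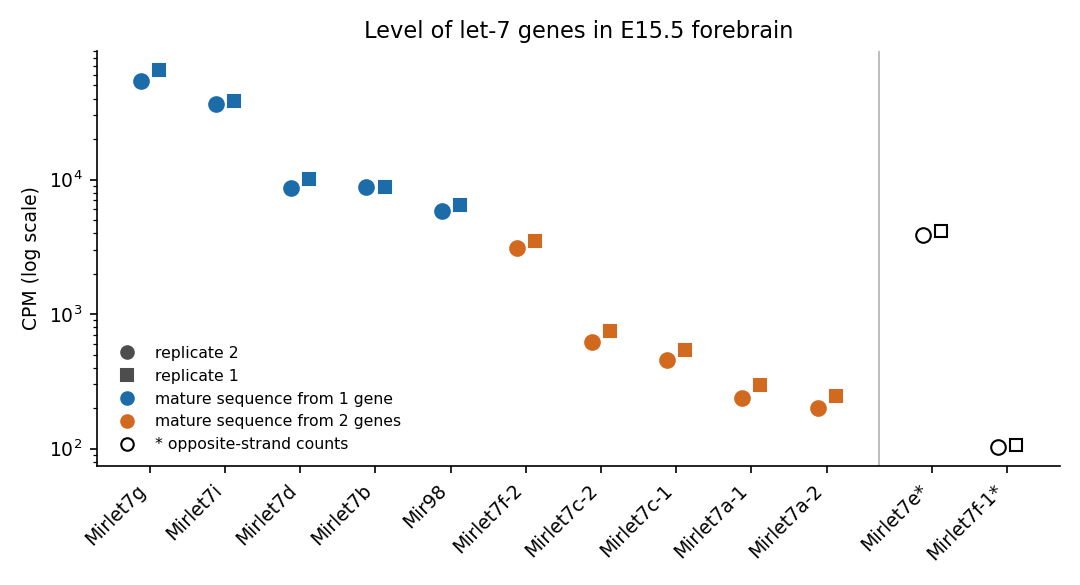
CPM on a log axis for each let-7 gene in replicate 2 (circles) and replicate 1 (squares), 1 point per library, in order of mean level; blue marks a mature sequence made by 1 gene, orange one made by 2 genes, and open symbols past the grey line are opposite-strand counts at the positions of Mirlet7e and Mirlet7f-1. The 5 blue genes lie between 5783 and 65585 CPM and the 5 orange genes between 199 and 3505 CPM.

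Many let-7 genes sit in clusters with other miRNAs, and such clusters are often copied as 1 primary transcript. In each of 5 clusters the let-7 gene with a shared strand was the lower one. Mirlet7c-1 lies 721 bp from Mir99a, the most abundant gene of the libraries, and stood at 0.146% of its level in replicate 2 and 0.191% in replicate 1. Mirlet7a-2, 5291 bp from Mir100, stood at 0.510% of it in replicate 2 and 0.655% in replicate 1. Among clusters of let-7 genes alone, Mirlet7a-1 stood at 2.79% of Mirlet7d in replicate 2 and 2.93% in replicate 1, over 2167 bp. Mirlet7c-2 stood at 6.99% of Mirlet7b in replicate 2 and 8.40% in replicate 1, over 716 bp. Mirlet7f-2 was the nearest to its neighbour, at 53.9% of Mir98 in replicate 2 and 54.4% in replicate 1, over 868 bp. What the multi-mapping row took from each of these genes was not tested.

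The partner genes of the let-7 clusters belong to the miR-99/100 and miR-125 families, of which miR-125 shares targets such as Lin28 with let-7. Mir99a had 311336 CPM in replicate 2 and 282249 CPM in replicate 1, and Mir100 had 39111 CPM in replicate 2 and 37831 CPM in replicate 1. Farther along the same clusters, Mir125b-1 had 2359 CPM in replicate 2 and 2106 CPM in replicate 1, and Mir125b-2 had 1859 CPM in replicate 2 and 2012 CPM in replicate 1. Each of these 4 lay above the let-7 gene of its cluster in both libraries. The Mir125b genes also share a mature strand, as the let-7a and let-7c genes do.

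The position of Mirlet7e between Mir99b and Mir125a (chr17:17830352-17830444, + strand) and that of Mirlet7f-1 (chr13:48537829-48537917, − strand) were covered by rows of annotated genes on the opposite strand. These rows were Gm25927 (chr17:17830343-17830459, − strand, ENSMUSG00000092799) and Gm24111 (chr13:48537825-48537921, + strand, ENSMUSG00000093232). Gm25927 had no count on its own strand and 18528 counts in replicate 2 and 18364 counts in replicate 1 on the strand of Mirlet7e. Scaled like the other genes, these were 3898 CPM in replicate 2 and 4113 CPM in replicate 1, between Mir98 and Mirlet7f-2. That level was 17.1% of Mir99b (22825 CPM) in replicate 2 and 19.6% of Mir99b (21010 CPM) in replicate 1. Gm24111 had no count on its own strand, and on the strand of Mirlet7f-1 it had 485 counts in replicate 2 and 474 in replicate 1, which made 102 CPM in replicate 2 and 106 CPM in replicate 1, below every member. Against Mirlet7f-2, the other gene for let-7f, this was 3.27% in replicate 2 and 3.03% in replicate 1. With both positions added, the family held 12.2% of gene counts in replicate 2 and 13.9% in replicate 1.

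**Figure D2:**
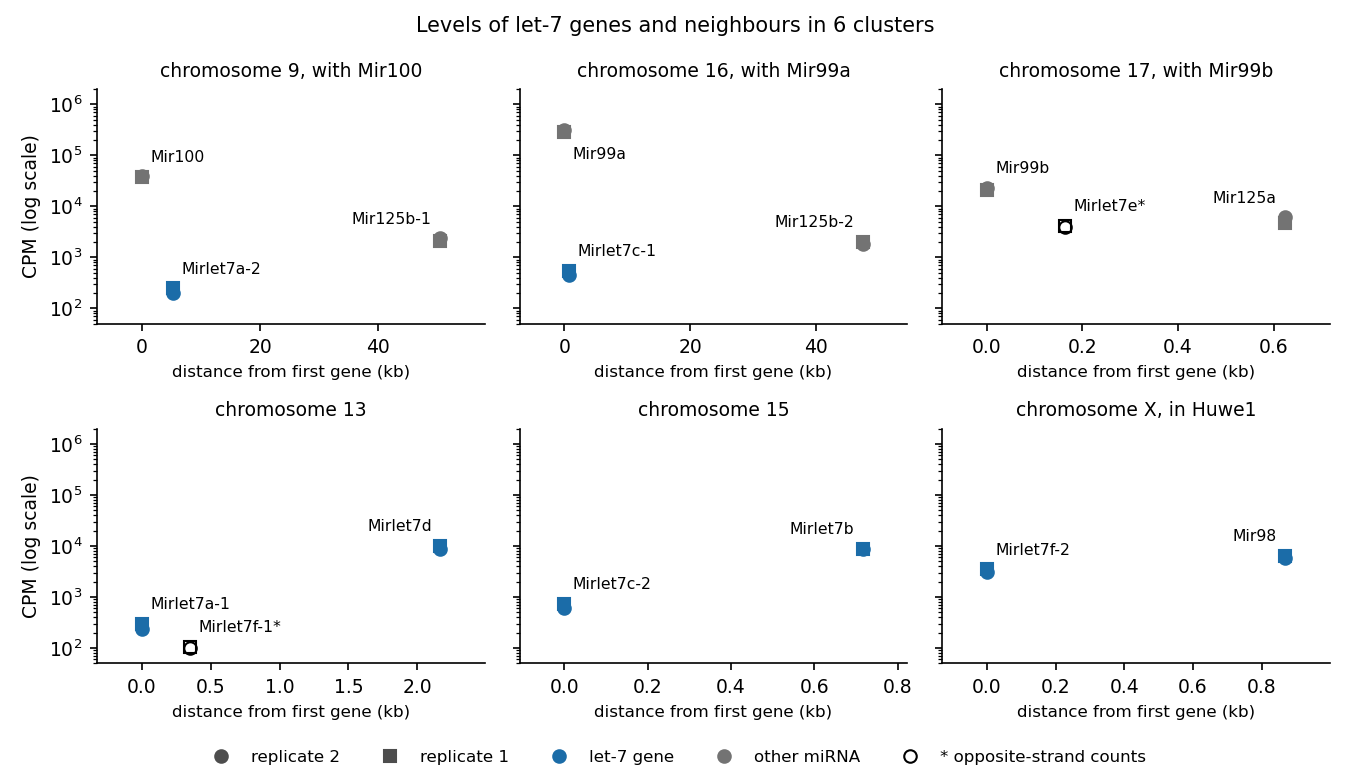
CPM on a log axis against distance in kb from the first gene in the direction of transcription, in 6 clusters, for replicate 2 (circles) and replicate 1 (squares); blue marks let-7 genes, grey other miRNAs and open symbols opposite-strand counts at Mirlet7e and Mirlet7f-1. In the clusters of Mirlet7a-2 and Mirlet7c-1 the let-7 gene lies lowest, at 199 to 540 CPM.

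The opposite strand of the members themselves was nearly empty. Mirlet7b had 12 opposite-strand counts in replicate 2 (0.0285% of its counts, Clopper-Pearson interval 0.0147 to 0.0499) and 9 in replicate 1 (0.0228%, 0.0104 to 0.0433). Mir98 had 1 in each library. The other 8 members had 0 in both, which allows up to 3 counts, a floor of 0.631 CPM in replicate 2 and of 0.672 CPM in replicate 1.

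Between the libraries, 9 of 10 members were lower in replicate 2 and none was higher, by two-sided exact binomial tests with Benjamini-Hochberg adjustment over all 457 genes that had at least 10 counts. The same test called 36.3% of all genes in either direction and 17.1% lower in replicate 2. Counts set what the test can call: among the 146 genes with at least 2000 counts, a minimum chosen after the values were seen and met by every member, 40.4% were called lower. The median log2 ratio of replicate 2 over replicate 1 was -0.24 over the members, 0.047 over all genes tested and -0.018 over the genes with at least 2000 counts. Scaled by the sum of gene counts, no member passed the spread between the replicates over all genes, which 180 of the 457 genes passed. That spread was an SD of the log2 ratio of 0.328 from edgeR's common dispersion, estimated with TMM factors. With TMM factors, Mirlet7a-1 (-0.347) and Mirlet7a-2 (-0.353) passed it, as they did with DESeq2 size factors (-0.334 and -0.340). With all reads as the total, these genes, Mirlet7g (-0.336) and Mirlet7c-2 (-0.329) passed it. The SD rests on all genes tested, many with few counts. The median size of the log2 ratio, sign left out, was 0.24 for the members and 0.14 for the genes with at least 2000 counts, and 90.0% of the members and 53.4% of those genes had a ratio below 0.

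The sizes differed between members. Mirlet7g was lower in replicate 2 by a log2 ratio of -0.27 (95% interval from counts -0.28 to -0.26), and Mirlet7d by -0.23 (-0.25 to -0.21, exact binomial adjusted p = 6.18e-122). Smaller ratios were those of Mirlet7f-2, -0.17 (-0.20 to -0.14, exact adjusted p = 2.12e-23), Mir98, -0.16 (-0.18 to -0.13, exact adjusted p = 9.23e-37), and Mirlet7i, -0.089 (-0.099 to -0.079, exact adjusted p = 6.52e-72). Mirlet7b did not differ detectably, with a log2 ratio of 0.00098 (-0.019 to 0.021, exact adjusted p = 0.979). The 4 genes for let-7a and let-7c lay together at -0.31 to -0.25, with wider intervals because they had 948 to 3316 counts per library. Mirlet7c-2 stood at -0.26 (-0.34 to -0.19) and Mirlet7b, 716 bp away in the same host gene, at 0.00098, and their intervals do not overlap. Unlike Mirlet7b, the let-7a and let-7c genes share their strands, and what the multi-mapping row took from them in each library was not tested.

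**Figure D3:**
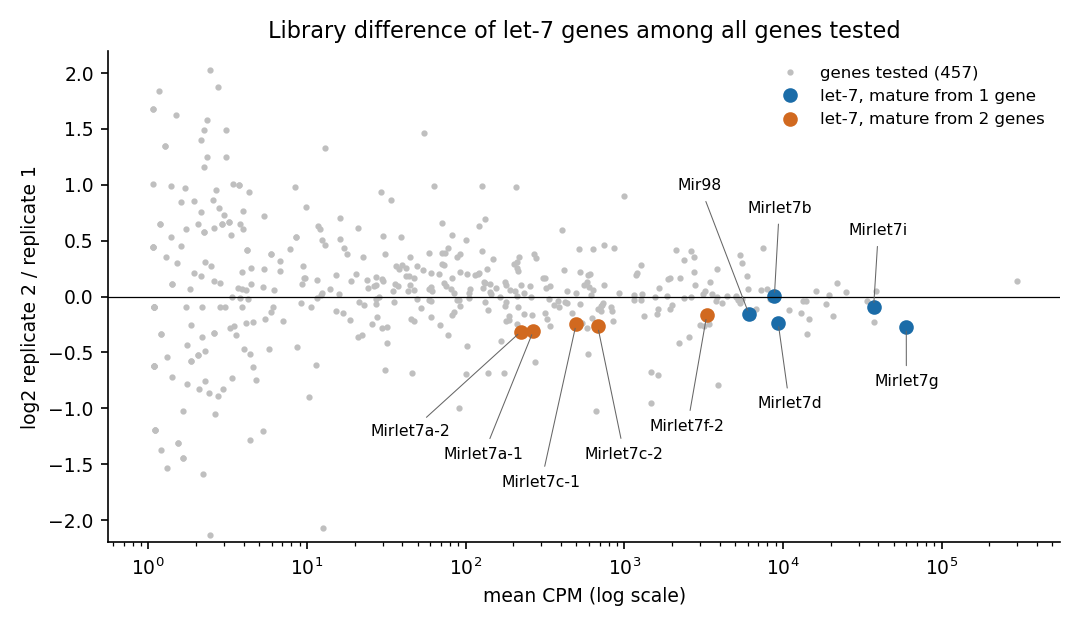
Log2 ratio of replicate 2 over replicate 1 against mean CPM (log axis) for the 457 genes tested (grey), with let-7 genes in blue (mature sequence made by 1 gene) or orange (by 2 genes); 3 genes lie outside the vertical range. Mirlet7b lies at 0.00098 and the other 9 members between -0.31 and -0.089. Mirlet7g, at 59954 CPM, has no grey point near its level: the next genes below and above, Mir100 (38471 CPM) and Mir99a (296792 CPM), lie at 0.048 and 0.14.

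The make-up of the family counts does not depend on how the libraries are scaled. Mirlet7g made up 45.9% of the family counts in replicate 2 (Clopper-Pearson 45.8 to 46.0) and 48.7% in replicate 1 (48.5 to 48.8), a difference of -2.76 percentage points. Mirlet7i made up 30.6% in replicate 2 (30.5 to 30.7) and 28.6% in replicate 1 (28.4 to 28.7), and Mirlet7b 7.47% in replicate 2 and 6.56% in replicate 1. Mirlet7d held 7.25% in replicate 2 and 7.48% in replicate 1, and Mir98 4.89% in replicate 2 and 4.78% in replicate 1. So Mirlet7i and Mirlet7b took more of the family counts in replicate 2, and Mirlet7g took less.

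Most partner genes had ratios of the other sign. Of the 6 partners, 5 were called higher in replicate 2 and Mir125b-2 was called lower, beside 19.3% of all genes and 31.5% of those with at least 2000 counts called higher, with a median log2 ratio of 0.13; Mir100 was not called with TMM factors (0.0078, exact adjusted p = 0.215) and was called lower with all reads as the total (-0.016, exact adjusted p = 0.00228). Mir125a, at 6070 CPM in replicate 2 and 4703 CPM in replicate 1, had a ratio of 0.37 (exact adjusted p = 3.52e-174), and Mir100 one of 0.048 (exact adjusted p = 3.57e-22). Opposite-strand counts at Mirlet7e had a log2 ratio of -0.078, beside 0.12 for Mir99b in the same cluster. Those at Mirlet7f-1 had a log2 ratio of -0.057, and neither position was tested.

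The markers of other cell types were summed in each pool, and the sums were not tested. The endothelial marker Mir126a had 16377 CPM in replicate 2 and 15856 CPM in replicate 1, and the 4 mesenchyme markers summed to 3777 CPM in replicate 2 and 3434 CPM in replicate 1. Most of the mesenchyme sum was Mir143, with 3613 CPM in replicate 2 and 3304 CPM in replicate 1. Mir199a-1 had 2 counts in replicate 2 and 0 in replicate 1. Of 5 blood cell markers, 4 had a row, and these summed to 264 CPM in replicate 2, against 217 CPM in replicate 1. The liver marker Mir122 stood at 88.6 CPM in replicate 2, against 65.6 CPM in replicate 1. Lower in replicate 2 was the muscle marker Mir206, with 4.84 CPM in replicate 2 and 20.6 CPM in replicate 1. None of the markers with a row was at 0 in both libraries. Their part in the let-7 difference was not tested.

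The call of Mirlet7b, and the size of the other ratios, changed with the total used for scaling. All 10 members were called lower in replicate 2 with TMM factors, with DESeq2 size factors and with all reads as the total. With a total that leaves out Mir99a, 9 were called lower and Mirlet7b higher. The split of calls over all genes moved as well: 53.0% of called genes were higher in replicate 2 as first scaled, 42.9% with TMM, 69.1% without Mir99a and 38.4% with all reads.

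**Figure D4:**
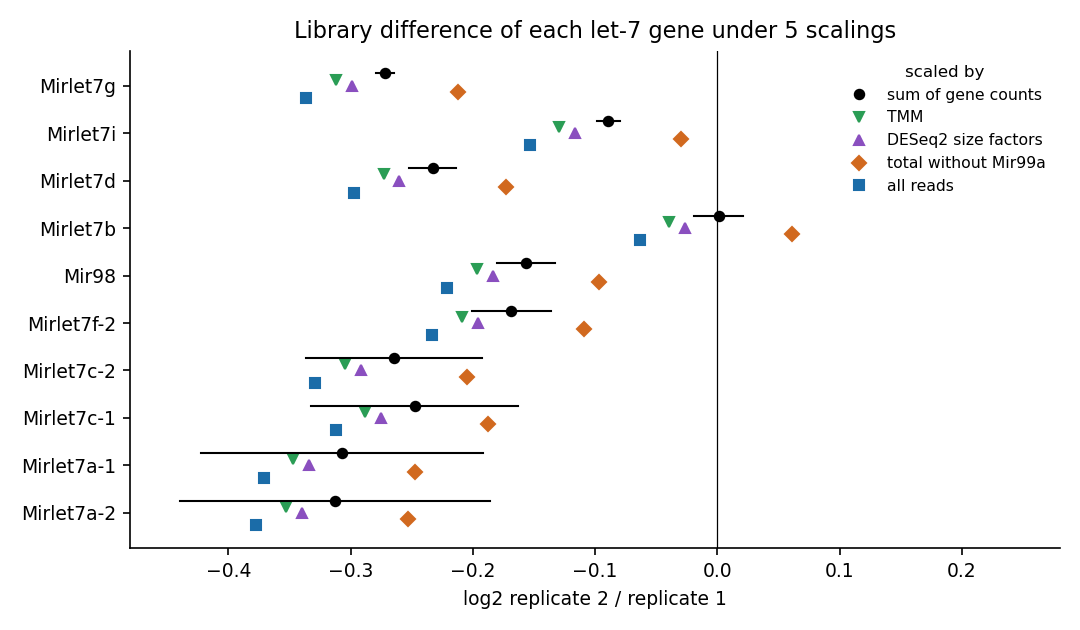
Log2 ratio of replicate 2 over replicate 1 for each member under 5 ways to scale the libraries, with the 95% counting interval (bar) for the total of gene counts. All members except Mirlet7b stay below 0 under each scaling, and Mirlet7b runs from -0.064 with all reads to 0.061 without Mir99a.

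The terminal loop of the let-7 precursors is where LIN28 binds, with its zinc knuckles on the letters GGAG. These letters were searched on the RNA strand between the 5′ and 3′ arms, in members whose loops are reported here. Of the 644 mouse hairpins for which RefSeq lists both arms, 52 (8.07%) held them in that window. The loops of Mirlet7g, Mirlet7i, Mirlet7d, Mirlet7b and Mirlet7c-2 are shown with GGAG in capitals, since they hold the 4 highest members and loops with and without the letters.
Mirlet7g: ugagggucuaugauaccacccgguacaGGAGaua
Mirlet7i: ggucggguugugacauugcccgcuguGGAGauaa
Mirlet7d: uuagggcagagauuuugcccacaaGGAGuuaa
Mirlet7b: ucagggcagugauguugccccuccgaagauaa
Mirlet7c-2: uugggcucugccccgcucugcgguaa
Mirlet7g (54323 CPM in replicate 2 and 65585 CPM in replicate 1) and Mirlet7i had the letters, and so did Mirlet7a-2, the lowest member. Mirlet7d, Mirlet7f-2, Mirlet7c-1 and Mirlet7a-1 had them as well. Mirlet7b and Mirlet7c-2, at 8839 and 680 CPM on average, were the only members searched here with loops without them. Loops with and without the letters were thus found at high and at low counted levels. Mirlet7a-2 and Mirlet7c-2, the low ones named, share their strands with another gene, so their levels are uncertain. No count over the family is given, since not every member's loop is reported. A match is a run of letters and no match says only that they are not in this window.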

How the data were processed

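The deposited values were raw read counts, 1 row for each miRNA gene, made by the authors from alignments to mm10 with GENCODE M4, per the file headers of the README text. No source used here names the aligner or the counter. Each file had a column for either strand and 1 for each strand, and of the last 2 the one with more counts was used as the RNA's strand. The 4 rows that name no gene (all reads but those of gene rows) stayed out of totals and tests: the unmapped share was 18.2% for replicate 2 and 14.3% for replicate 1.

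CPM was the count over the sum of gene rows. Symbols and places came from GENCODE M21 on the same build (1894 of 1973 rows matched, 79 did not), and hairpins and mature strands from RefSeq. The libraries were compared by exact binomial tests with Benjamini-Hochberg adjustment at 0.05, with 0.5 counts added for ratios (Python 3.11.15, SciPy 1.17.1, statsmodels 0.14.6). The tests were also run on simulated counts with counting error alone, which cannot show how they behave under a wider spread between libraries. edgeR 4.0.16 gave the dispersion and TMM factors and DESeq2 1.42.0 size factors (R 4.3.3). With 1 group, no quasi-likelihood test was run. Named genes were all 10 members, their cluster neighbours and partners, and the cell type markers; Gm25927 and Gm24111 were chosen after their values were seen. Members, lists and tests were chosen with earlier results of these data known. Alternatives were other scalings, the column for either strand, count minimums of none, 100 and 2000, 1 CPM added, single-copy members alone, hairpin length and each replicate left out. The loop of the remaining member is not reported here.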

Additional observations from a re-analysis of the deposited data

Results flagged for a closer look

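Counts stood in the opposite-strand column, which the levels above do not use. Gm25927, annotated opposite Mirlet7e, had 18528 opposite-strand counts in replicate 2 and 18364 in replicate 1. These made up 25.9% of all opposite-strand counts in replicate 2 and 25.5% in replicate 1. Gm24111, annotated opposite Mirlet7f-1, had 485 opposite-strand counts in replicate 2 and 474 in replicate 1. Mirlet7b had 12 in replicate 2 and 9 in replicate 1.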

How the results depend on the processing

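The family's share of gene counts averaged 12.7%, and was 18.0% of a total without Mir99a and 4.71% of all reads. The fold from the highest to the lowest member, which has a shared strand and an uncertain level, averaged 269, and 293 per nucleotide of hairpin. The log2 ratio of Mirlet7b turned below 0 with TMM factors (-0.039), DESeq2 size factors (-0.026) and all reads as the total (-0.064), and its call appeared, at 0.061, without Mir99a. The other 76 of 80 recomputed ratios of single members kept their direction and their side of the threshold. The 76 include the ratios under other count minimums. A minimum only sets which genes are tested, so a member's ratio could not change there, and only its adjusted p-value could. Of 70 recomputed levels of single members, 49 stayed within 1 SD, and 21 moved, under a total without Mir99a or of all reads except for Mirlet7b with counts on either strand (8706 CPM). The 49 include the levels with a replicate left out, which with 2 libraries cannot lie beyond 1 SD of their mean. The median log2 ratio of the members ran from -0.30 with all reads to -0.18 without Mir99a, and was -0.16 over the members with a strand of their own; scaling moved the all-gene median by at most 0.064. Leaving out a replicate leaves 1 library and no test; the share of Mirlet7g in the family was then 45.9% or 48.7%. Depth limits a gene at 0 to under 0.631 CPM in replicate 2 and 0.672 CPM in replicate 1. No paired analysis was possible because there is 1 group.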

Other observations

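Other rows carry let-7 names or the seed. Mir7j (let-7j), whose strand has GAGGUAU at bases 2 to 8 and so is outside the seed group, had 60.0 CPM in replicate 2 and 57.3 CPM in replicate 1. Mir7k (let-7k), with the let-7 seed, had 1 count in each library, and Mir1961, with the same seed, had 0, which allows up to 0.631 CPM in replicate 2 and 0.672 CPM in replicate 1. Precursors of let-7 are divided, from work on human cells, into those that Dicer cuts as they are (group I) and those that first receive a uridine (group II). The 2 members of group I, Mirlet7a-2 and Mirlet7c-1, averaged 224 and 497 CPM, and the 7 of group II ran from 268 to 59954 CPM. Mirlet7c-2 was in neither list, and both group I members share their mature strand with another gene.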
